A study of Mus musculus with 6 samples.

Results

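Loops between promoters and the rest of their chromosome were compared between mouse embryonic stem cells depleted of INO80 and cells depleted of BRG1, the catalytic subunits of 2 different chromatin remodellers. The comparison used every row of the loop lists of 4 libraries, out of 6 in the series: Ino80KD replicates 1 and 2, and Brg1KD replicates 1 and 2. All cells were wild-type E14TG2a (E14), an established male line grown on gelatin in serum with leukaemia inhibitory factor, and all were harvested 48 h after they were transfected with an esiRNA, the mixed short interfering RNAs that result when a long double strand is digested. The Ino80KD cells received esiRNA against Ino80 and the Brg1KD cells esiRNA against Smarca4, the gene of BRG1. The 2 Control libraries, from cells given esiRNA against the reporter gene EGFP, are quoted beside the results as the background. Replicates 1 of all groups were labelled batch 1, replicates 2 of both depletions batch 3, and Control replicate 2 batch 2. Each Ino80KD library was therefore set against the Brg1KD library of its own batch, and Control replicate 2 shared a batch with no other library. The labels do not say that replicates came from separate cultures, so p-values measure only the spread between these samples, which may be technical. These libraries hold no RNA measurement, and the depletion of either target could not be checked here. The bait of Smarca4 had 6 and 3 loops in the Brg1KD libraries, 2 and 2 in Ino80KD and 1 and 1 in Control, and no bait carried the name Ino80.

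In promoter-capture Micro-C, crosslinked chromatin is cut to nucleosomes with micrococcal nuclease, neighbouring ends are ligated, and fragments that contain a promoter (the baits) are enriched. A loop is a pair of regions, a bait and its other end, that the authors' caller listed with a score of 5 or more. BRG1 is the ATPase of esBAF, the SWI/SNF-type complex of embryonic stem cells, which slides and evicts nucleosomes and keeps enhancers accessible. INO80 is the ATPase of a separate complex that slides and spaces nucleosomes and acts on nucleosomes containing the variant histone H2A.Z. The replication-dependent histone genes, which lack introns and are transcribed in S phase, lie in clusters that meet in a nuclear body, the histone locus body. In embryonic stem cells many silent promoters of developmental regulators are bound by polycomb complexes, which compact chromatin and bring distant target promoters together.

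The promoters below belong to baits on which the results turn. Each is the 150 bases before a RefSeq transcript start (GRCm38.p6, the same coordinates as mm10, the build of the deposited files), read 5′ to 3′ on the gene's strand. The first set holds histone genes of chromosome 13 whose baits had more loops in Ino80KD than in Brg1KD in both batches. Capitals mark CCAAT, the letters read by the factor NF-Y. They also mark TATAAA, which positions the protein TBP at core promoters. Both were searched on either strand, so that a match on the other strand stands in capitals as its reverse complement.
H2ac7, chr13:23574231-23574380 (+): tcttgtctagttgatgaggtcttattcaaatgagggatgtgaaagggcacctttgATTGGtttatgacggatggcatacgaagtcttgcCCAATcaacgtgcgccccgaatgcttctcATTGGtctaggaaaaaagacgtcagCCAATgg
H3c4, chr13:23575613-23575762 (+): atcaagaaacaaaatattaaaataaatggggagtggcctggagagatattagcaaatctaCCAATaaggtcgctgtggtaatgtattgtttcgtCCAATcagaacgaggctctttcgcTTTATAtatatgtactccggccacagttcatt
H2ac11, chr13:22042950-22043099 (-): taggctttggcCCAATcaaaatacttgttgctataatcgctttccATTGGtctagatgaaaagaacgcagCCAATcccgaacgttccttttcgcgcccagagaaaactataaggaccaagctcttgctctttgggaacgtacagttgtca
H2ac12, chr13:22035644-22035793 (-): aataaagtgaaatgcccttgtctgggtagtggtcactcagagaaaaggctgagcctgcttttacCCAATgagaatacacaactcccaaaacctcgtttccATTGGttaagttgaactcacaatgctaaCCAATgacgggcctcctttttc
H2ac10, chr13:23533725-23533874 (+): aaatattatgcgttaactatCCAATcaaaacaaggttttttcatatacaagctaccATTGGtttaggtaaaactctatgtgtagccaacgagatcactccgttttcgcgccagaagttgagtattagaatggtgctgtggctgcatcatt

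CCAAT occurred 4 times in the H2ac7 promoter, 3 times in those of H2ac11 and H2ac12, and 2 times in those of H3c4 and H2ac10. The promoters of H3c8, on the bait of H2ac10, and H4c9, on the bait of H2ac11, held fewer, 1 and 0, and are not printed. CCAAT was found in 49 of 60 histone promoters (81.7%), against 5624 of all 21263 protein-coding promoters of the same length (26.5%). TATAAA was found in 38.3% of histone promoters and in 7.26% of all. The promoters of major histocompatibility and butyrophilin-like genes, a list without more loops in Ino80KD, had shares like those of the histone genes, 76.7% with CCAAT and 32.6% with TATAAA. These are matches of letters and not measured binding.

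The second set holds developmental and polycomb genes from windows or promoter pairs with more loops in Ino80KD, and capitals mark CG, the dinucleotide that is dense in CpG islands and at polycomb-bound promoters.
Pax9, chr12:56695321-56695470 (+): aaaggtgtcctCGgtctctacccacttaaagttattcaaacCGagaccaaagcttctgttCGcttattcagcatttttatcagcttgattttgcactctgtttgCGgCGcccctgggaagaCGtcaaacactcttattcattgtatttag
Nkx2-1, chr12:56536909-56537058 (-): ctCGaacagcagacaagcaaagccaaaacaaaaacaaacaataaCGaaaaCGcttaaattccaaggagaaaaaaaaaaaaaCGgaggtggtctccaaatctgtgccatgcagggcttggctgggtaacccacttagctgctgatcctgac
Irx3, chr8:91801655-91801804 (-): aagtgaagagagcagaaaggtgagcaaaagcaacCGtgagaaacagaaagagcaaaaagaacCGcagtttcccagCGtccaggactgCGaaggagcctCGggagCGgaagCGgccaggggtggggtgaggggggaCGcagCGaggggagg
Bmi1, chr2:18676868-18677017 (+): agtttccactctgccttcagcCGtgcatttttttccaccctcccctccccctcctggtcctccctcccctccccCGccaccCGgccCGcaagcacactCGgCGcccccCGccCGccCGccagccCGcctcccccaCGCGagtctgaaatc
Hmx3, chr7:131542813-131542962 (+): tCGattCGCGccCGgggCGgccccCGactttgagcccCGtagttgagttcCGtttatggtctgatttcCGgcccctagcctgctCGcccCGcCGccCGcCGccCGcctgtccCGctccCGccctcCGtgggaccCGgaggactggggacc

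CG occurred 6 times before Pax9, 4 times before Nkx2-1, 9 times before Irx3, 12 times before Bmi1 and 19 times before Hmx3. The median was 10.5 over 72 promoters of homeobox regulators, 12 over 48 promoters of polycomb genes, 6 over the histone promoters and 7 over all protein-coding promoters. The developmental promoters shown therefore ran from below to above the median of all.

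The third set holds the 2 baits outside the histone clusters that passed the bait test described further on. Capitals mark CG and CCAAT.
Syt9, chr7:107370640-107370789 (+): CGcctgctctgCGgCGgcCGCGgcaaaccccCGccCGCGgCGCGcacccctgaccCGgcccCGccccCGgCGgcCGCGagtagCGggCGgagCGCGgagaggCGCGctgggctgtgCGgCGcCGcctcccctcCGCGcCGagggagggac
H2-M11, chr17:36546925-36547074 (+): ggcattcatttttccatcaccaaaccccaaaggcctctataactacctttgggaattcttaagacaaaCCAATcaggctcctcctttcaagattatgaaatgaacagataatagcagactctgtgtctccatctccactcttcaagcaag

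The Syt9 promoter held 28 CG and no CCAAT, and the H2-M11 promoter held 1 CCAAT and no CG.

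Loops within a chromosome numbered 14675 and 14113 in the Ino80KD libraries, against 12254 and 12962 in Brg1KD and 15322 and 14394 in Control. Both Ino80KD libraries had more than both Brg1KD libraries. The ratio of Ino80KD to Brg1KD, as the geometric mean of the within-batch ratios of 1.20 and 1.09, was 1.14. With 2 libraries against 2 the smallest p an exact permutation test allows is 0.33, which this difference reached (two-sided). Since the number of loops differed, counts at genes are given below as listed and then per 1000 intrachromosomal loops of the library. The lists hold no read counts, so the sequencing depth behind them is unknown, and every interval given covers counting error only.

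Loops between chromosomes made up a smaller share in Ino80KD than in Brg1KD of the same batch. They were 16.1% and 14.6% of loops in Ino80KD, 23.7% and 16.7% in Brg1KD and 15.1% and 17.0% in Control. Brg1KD replicate 1 stood apart, with 2557 baits in interchromosomal loops against 1003 to 1300 in the other 5 libraries. The Ino80KD share was lower by 7.63 percentage points in batch 1 and by 2.15 in batch 3 (exact permutation p = 0.33, the smallest possible). Without Brg1KD replicate 1 the difference was -1.39 percentage points. One bait, at chr2:98661117-98662976, held between 884 and 1504 loops per library and was left out throughout.

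The gene groups that differed most were the histone genes, the homeobox regulators outside the Hox clusters and the genes of polycomb complexes. Each had 2.27 to 2.29 times as many loops per 1000 in Ino80KD as in Brg1KD over both batches. Genes of the pluripotent state (1.82 times) and of primitive endoderm (1.70 times) followed with far fewer loops, and other developmental regulators stood at 1.63 times. Among 25 gene lists, both batches gave a higher value in Ino80KD for 12 and a lower value for 2, and the rest differed in direction between the batches. Without Brg1KD replicate 1, the library that stood apart in its interchromosomal loops, the ratios were 2.03 for histone genes, 2.43 for homeobox regulators, 2.54 for polycomb genes and 1.64 for other developmental regulators. No test was made over a list, since the lists were chosen with earlier results of these data known.

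**Figure D1:**
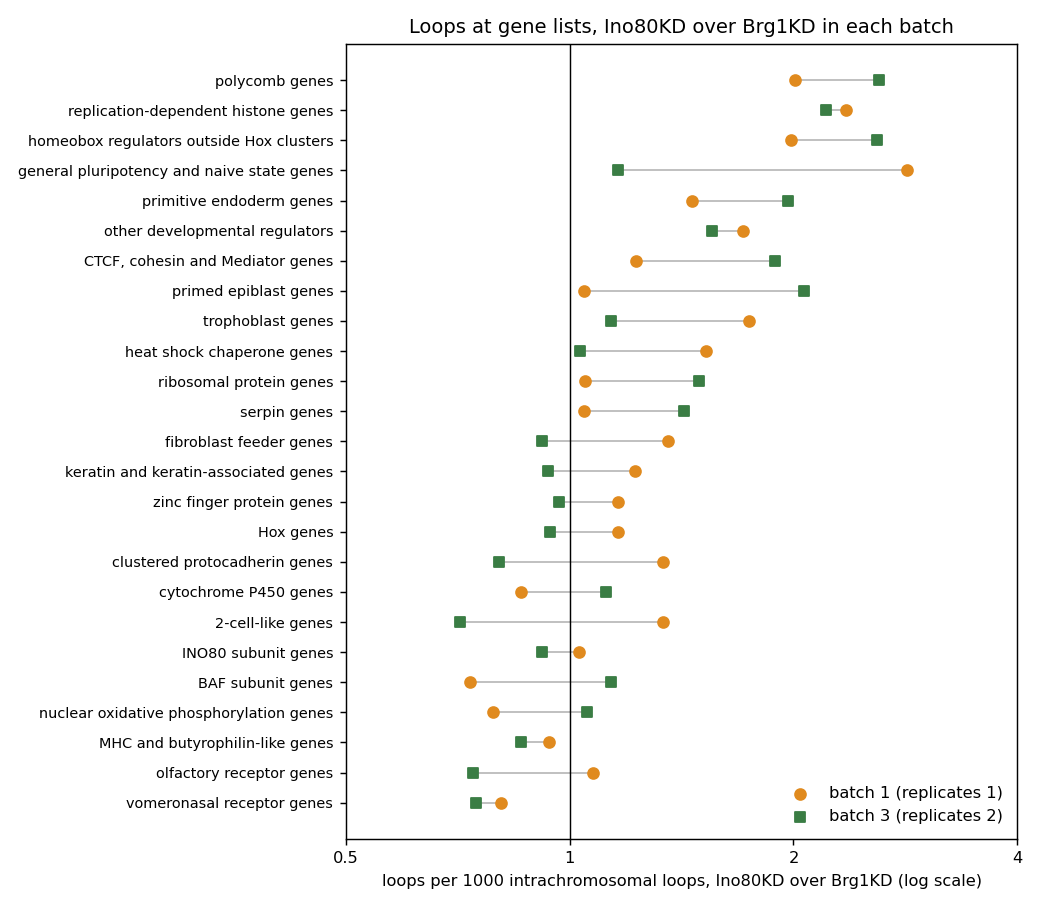
Ratio of loops per 1000 intrachromosomal loops, Ino80KD over Brg1KD, for each of 25 gene lists (rows) on a log axis, with circles for batch 1 and squares for batch 3. The histone genes (2.35 and 2.21), homeobox regulators (1.98 and 2.59) and polycomb genes (2.01 and 2.61) stand to the right of 1 in both batches, while Hox genes (1.16 and 0.94) and olfactory receptor genes (1.07 and 0.74) lie on both sides of it.

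Replication-dependent histone genes, which encode the bulk of the histones packed onto new DNA, had 169 and 195 loops in Ino80KD, 60 and 81 in Brg1KD and 166 and 108 in Control. Every Ino80KD value lay above every Brg1KD value, and the Control library of batch 1 lay beside the Ino80KD library of that batch. Per 1000 loops this was 12.7 ± 1.63 in Ino80KD and 5.57 ± 0.957 in Brg1KD (SD, n = 2), a ratio of 2.28. Of 36 histone baits, 31 lie on chromosome 13 between 21715302 and 23935276, and 5 on chromosome 3. The chromosome 13 baits held 157 and 188 loops in Ino80KD against 51 and 78 in Brg1KD. The chromosome 3 baits held 12 and 7 against 9 and 3, so that nearly all of the difference lay on chromosome 13.

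The difference was larger for loops that joined histone promoters to each other. Loops with both ends on histone baits numbered 34 and 50 in Ino80KD, 5 and 14 in Brg1KD and 38 and 16 in Control, a ratio of 4.32 per loop. Loops from a histone bait to an unbaited region numbered 132 and 141 in Ino80KD and 55 and 67 in Brg1KD, a ratio of 1.97. Loops of 1 Mb or longer numbered 115 and 128 against 34 and 52 (ratio 2.53), and shorter ones 54 and 67 against 26 and 29 (ratio 1.92). Both spans thus had more loops in Ino80KD, and the groups did not overlap in either. Other baits of chromosome 13 between 21 and 24 Mb, with no histone bait at either end, held 144 and 138 loops against 93 and 110, a ratio of 1.22. The median span of histone loops was 1543 and 1523 kb in Ino80KD and 1460 and 1519 kb in Brg1KD, much longer than the 219.8 to 259.3 kb over all baits of these libraries.

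Of the 21 histone baits with 8 or more loops over the 4 libraries, 16 had more loops per 1000 in Ino80KD in both batches and 0 had fewer. Over all 1805 baits with as many loops, 24.5% were higher in both batches and 28% lower. The genes share baits, so members are not independent. The bait of H2ac10 and H3c8, which encode an H2A and an H3 histone, had the most loops of the list, with 25 and 35 in Ino80KD, 13 and 14 in Brg1KD and 25 and 15 in Control. The bait of H2ac12 and H2bc12, an H2A and an H2B gene, had 18 and 23 against 6 and 9 (Control 20 and 6). The bait of H2ac11, H2bc11 and H4c9 had 15 and 21 against 4 and 8 (Control 18 and 15). At each of these 3 baits both Ino80KD libraries lay above both Brg1KD libraries. The Control libraries lay above both Brg1KD libraries at the baits of H2ac10 and H2ac11. At the bait of H2ac12 they ran from the lowest Brg1KD value to above an Ino80KD value. The limma log2 differences of the 3 baits, in the order given, were 0.91 ± 0.32, 1.22 ± 0.35 and 1.37 ± 0.37 (SE). The limma adjusted p were 0.248, 0.140 and 0.0703, so none of these 3 passed the test alone. Counted instead as baits with at least 1 loop, the histone list had a ratio of 1.21, so that the difference lay mostly in the number of loops per bait.

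Homeobox regulators outside the Hox clusters, transcription factors that set tissue identity in the embryo, had 159 and 175 loops in Ino80KD, 67 and 62 in Brg1KD and 147 and 111 in Control. The groups did not overlap, and both Control libraries lay between them. The level was 11.6 ± 1.11 per 1000 in Ino80KD and 5.13 ± 0.484 in Brg1KD (SD, n = 2), a ratio of 2.27. Of 30 homeobox baits with 8 or more loops, 22 were higher in both batches and 3 lower, beside the 24.5% and 28% over all baits. Pax9, a paired-box factor of pharyngeal pouch and tooth, had 14 and 16 loops in Ino80KD against 2 and 4 in Brg1KD (Control 13 and 8). Lhx2, a LIM-homeobox factor of forebrain and eye, had 10 and 12 against 3 and 4 (Control 7 and 6). Pax2, which acts in kidney and inner ear, had 11 and 10 against 1 and 4 (Control 9 and 3). In these 3 genes the Ino80KD libraries lay above all others. Irx2, of the Iroquois family, was less clear, with 6 and 8 loops in Ino80KD, 5 and 4 in Brg1KD and 11 and 8 in Control.

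Other developmental regulators, which include signalling ligands and non-homeobox factors, had 121 and 105 loops in Ino80KD, 59 and 62 in Brg1KD and 123 and 90 in Control, a ratio of 1.63 per 1000. Of 11 such baits with 8 or more loops, 7 were higher in both batches and 2 lower, beside the 24.5% and 28% over all baits. Shh, the hedgehog ligand, had 10 and 7 loops in Ino80KD and 1 and 2 in Brg1KD (Control 5 and 3). Foxa2, a forkhead factor of endoderm and floor plate, had 8 and 7 against 2 and 2 (Control 7 and 5). Tal1, a helix-loop-helix factor of blood, had 10 and 7 against 1 and 1 (Control 10 and 0). Gata3, a zinc finger factor of T cells and trophoblast, had 6 and 7 against 1 and 2 (Control 7 and 3). At all 4 genes, the members with most loops, the depletion groups did not overlap in loops as listed, and at Tal1 the Control libraries spanned the range of both. The share of all genes that separate in this way was not counted. The same holds for the single histone, homeobox, polycomb and pluripotency genes named in this report. Of 69 genes of the list with a loop, 18 were higher per 1000 in both batches, 10 were lower and 41 neither. This count by gene was not made over all genes, and the shares over all baits are for baits with 8 or more loops. It therefore has no background here.

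Genes of polycomb complexes had 53 and 54 loops in Ino80KD, 22 and 19 in Brg1KD and 47 and 27 in Control, a ratio of 2.29. All 4 polycomb baits with 8 or more loops were higher in both batches, beside 24.5% of all baits. Bmi1, a subunit of polycomb repressive complex 1, had 9 and 10 loops in Ino80KD against 0 and 1 in Brg1KD (Control 6 and 1). Bcorl1, a corepressor linked to variant complexes of that type, had 8 and 5 against 2 and 2 (Control 10 and 3). Rnf2, the ubiquitin ligase of complex 1, had 2 and 5 against 3 and 2, and Suz12, a subunit of complex 2, had 5 and 2 against 1 and 4. The last 2 genes overlapped between the depletions, so the excess of the list did not lie in every subunit gene.

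Developmental promoters were joined to each other and over longer distances in Ino80KD. Homeobox and other developmental regulators together had 272 and 270 loops in Ino80KD and 126 and 123 in Brg1KD. Loops with both ends on baits of these lists numbered 17 and 21 in Ino80KD, 0 and 3 in Brg1KD and 16 and 7 in Control. Loops from these baits to any other bait numbered 17 and 28 against 1 and 1 (Control 19 and 9). Both kinds of promoter pair were nearly missing from the Brg1KD lists. Loops of these genes of 1 Mb or longer numbered 47 and 46 against 4 and 10 (Control 33 and 15), a ratio of 6.44, while those under 1 Mb numbered 225 and 224 against 122 and 113, a ratio of 1.67. Loops to unbaited regions, 238 and 221 against 125 and 119, differed 1.65 times.

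**Figure D2:**
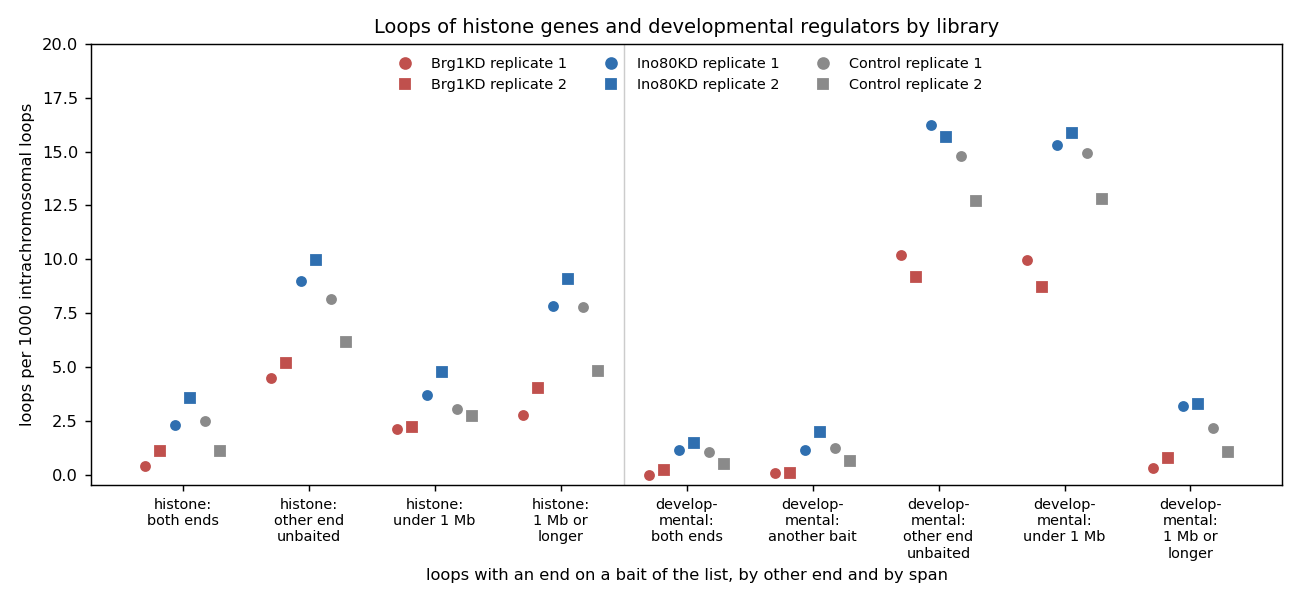
Loops per 1000 intrachromosomal loops in each library (points, coloured by group and shaped by replicate) for histone genes (left) and developmental regulators (right), by the kind of other end and by span. The Ino80KD points lie above the Brg1KD points in every class; for developmental loops of 1 Mb or longer they are at 3.20 and 3.26 against 0.326 and 0.771.

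Counted by gene pair, 21 pairs of developmental or polycomb genes were joined in at least 1 of the 4 libraries. Of these, 18 (85.7%) occurred in Ino80KD alone, 1 (4.76%) in Brg1KD alone (Irx2 with Irx4) and 2 in both. Ino80KD also held more pairs of genes of any kind: of all 1316 pairs of named genes joined between baits, 788 (59.9%) occurred in Ino80KD alone and 355 (27.0%) in Brg1KD alone. Both Ino80KD libraries, but no Brg1KD library, held 9 developmental or polycomb pairs (42.9%), against 83 (6.31%) of all pairs. For the reverse pattern these were 0 pairs and 11 (0.836%). Several of the 9 pairs share a gene, such as Foxa2, Pax1 and Nkx2-2. Gata3 and Sfmbt2, a gene of a polycomb-associated protein 489 kb away, shared 4 and 2 loops in Ino80KD, 0 and 0 in Brg1KD and 1 and 0 in Control. Foxa2 and Pax1 shared 2 and 2 loops in Ino80KD, 0 and 0 in Brg1KD and 2 and 2 in Control, as far apart as 683 kb. Nkx2-1, a factor of lung and thyroid, and Pax9 shared 2 and 2 against 0 and 0 (Control 2 and 1) over 159 kb. Irx3 and Irx5, Iroquois genes 556 kb apart, shared 1 loop in every Ino80KD and Control library and in neither Brg1KD library. Its authors' score was 19.2 and 31.2 in Ino80KD and 20.0 and 10.8 in Control, so that this pair stood well above the list minimum. In the authors' deposited table the log2 value of this pair was -0.81 ± 0.25 in the comparison of Brg1KD with Control and 0.18 ± 0.22 in that of Ino80KD with Control (their SE), with no value passing their adjustment. The header of that table does not say which group is the numerator. Irx1 and Irx2 were an exception, joined by 2 and 2 loops in Ino80KD, 0 and 1 in Brg1KD and 2 and 2 in Control.

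The Hox genes, also homeobox genes but held in compact clusters, differed little in their number of loops. They had 100 and 82 loops in Ino80KD, 72 and 80 in Brg1KD and 89 and 82 in Control. The ratio per 1000 was 1.16 in batch 1 and 0.94 in batch 3, and 1 of 15 Hox baits was higher in both batches against 5 lower. Hoxc4, with the most loops, had 10 and 13 in Ino80KD and 12 and 12 in Brg1KD. Hoxd3 had 11 and 10 against 7 and 10. In neither gene did the groups separate. Hox loops of 1 Mb or longer, in contrast, numbered 9 and 10 in Ino80KD, 1 and 1 in Brg1KD and 5 and 3 in Control. The median span of Hox loops was 295 and 385 kb in Ino80KD, 216 and 257 kb in Brg1KD and 329 and 269 kb in Control.

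Genes of the pluripotent state had few loops. Their list had 34 and 19 loops in Ino80KD, 10 and 15 in Brg1KD and 17 and 15 in Control, with ratios of 2.84 in batch 1 and 1.16 in batch 3. The batch 3 ratio was 0.87 once loops of 1 Mb or longer were left out. Pou5f1, which encodes OCT4, had 6 and 5 loops against 3 and 3 (Control 5 and 2), and Nanog had 9 and 3 against 3 and 1 (Control 1 and 2). The groups did not overlap at Pou5f1 and touched at Nanog. Stat3, which relays the LIF signal, had 3 and 0 loops in Ino80KD against 2 and 4 in Brg1KD (Control 0 and 1), and Sall4, a zinc finger factor, had 2 and 0 against 0 and 4 (Control 0 and 0). At these 2 genes the batches ran in opposite directions. Primitive endoderm genes had 21 and 15 loops against 12 and 7, and trophoblast genes 25 and 26 against 12 and 21, lists that share Foxa2, Sox17 and Gata3 with the developmental list. Fibroblast feeder genes had 13 and 8 against 8 and 8. Contacts carry no RNA level, so these lists say nothing of cell identity.

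Lists lower in Ino80KD were few. Vomeronasal receptor genes, a family of pheromone receptors, had 91 and 96 loops in Ino80KD, 94 and 118 in Brg1KD and 108 and 156 in Control, ratios of 0.81 and 0.75 per 1000, though loops of score 7 or more gave 1.34 in batch 1. Major histocompatibility and butyrophilin-like genes, of antigen presentation, had 120 and 118 loops against 107 and 126, ratios of 0.94 and 0.86 per 1000 intrachromosomal loops, which turned to above 1 in batch 1 per 1000 loops of every kind (1.03), with no scaling (1.12) and in lists of equal length (1.04). Olfactory receptor genes, the largest list, had 791 and 687 against 615 and 852, higher in batch 1 (1.07) and lower in batch 3 (0.74). Genes of the complexes themselves differed little: BAF subunit genes had 29 and 26 loops against 33 and 21, and INO80 subunit genes 16 and 11 against 13 and 11, though loops of score 7 or more gave a ratio of 2.03 for the BAF list.

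Across all genes, loops between baits, that is from promoter to promoter, were more frequent in Ino80KD. They numbered 621 and 774 in Ino80KD, 330 and 436 in Brg1KD and 671 and 500 in Control. As shares of intrachromosomal loops these were 4.23% (95% Wilson interval 3.92 to 4.57) and 5.48% (5.12 to 5.87) in Ino80KD, and 2.69% (2.42 to 3.00) and 3.36% (3.07 to 3.69) in Brg1KD. No Ino80KD interval overlapped a Brg1KD interval. The Control shares of 4.38% (4.07 to 4.71) and 3.47% (3.19 to 3.79) lay above the Brg1KD shares, but Control was not separated from the depletions. The interval of Control replicate 2 overlapped that of Brg1KD replicate 2, and the interval of Control replicate 1 that of Ino80KD replicate 1. The within-batch ratios were 1.57 and 1.63, with a mean of 1.60, and 1.44 without Brg1KD replicate 1 (exact permutation p = 0.33, the smallest possible for n = 2). Outside the histone, homeobox, other developmental and polycomb lists the counts were 546 and 663 against 323 and 418 and the ratio was 1.46. Within those 4 lists they were 75 and 111 against 7 and 18, a ratio of 7.12, so that most of the excess in number, but not the largest ratio, lay outside the lists.

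Loops of 1 to 10 Mb were more frequent in Ino80KD in both batches. They were 7.01% and 7.57% of loops in Ino80KD, 3.52% and 6.03% in Brg1KD and 7.02% and 7.73% in Control. Brg1KD replicate 1 had the lowest share and the ratio was 1.99 in batch 1 and 1.26 in batch 3, with a mean of 1.58, and 1.21 without Brg1KD replicate 1 (exact permutation p = 0.33, the smallest possible for n = 2). Outside the 4 lists named above it was 1.48. Shares of loops under 50 kb, from 50 to 250 kb and from 250 kb to 1 Mb had ratios of 1.01, 0.98 and 0.96, and in each of these the groups overlapped. Loops over 10 Mb were 1.73% and 1.91% in Ino80KD and 0.881% and 2.08% in Brg1KD, a ratio of 1.96 in batch 1 and 0.918 in batch 3. Without Brg1KD replicate 2 the ratio for these longest loops was 2.07, like that for loops of 1 to 10 Mb, and without Brg1KD replicate 1 it was 0.875.

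**Figure D3:**
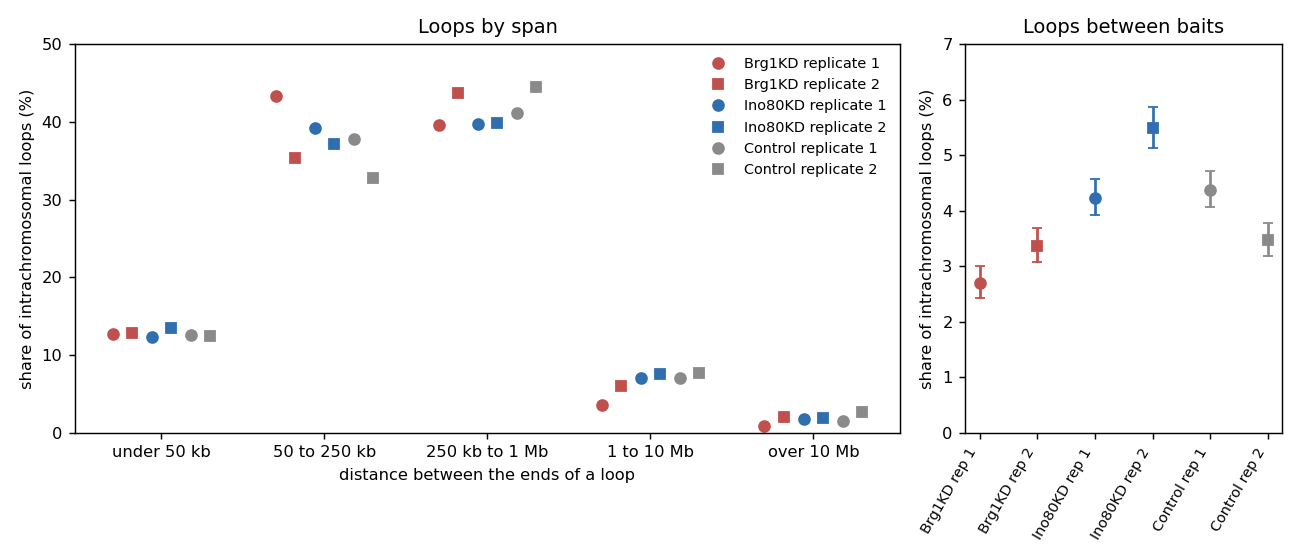
Share of intrachromosomal loops (%) by the distance between their ends (left) and share that joins a bait to a bait (right), with a point for each of the 6 libraries. The Ino80KD libraries, at 4.23% and 5.48% between baits, lie above the Brg1KD libraries at 2.69% and 3.36%, and loops of 1 to 10 Mb are lowest in Brg1KD replicate 1.

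Most single loops were listed in 1 library. Of 36893 distinct loops over the 4 libraries by identical ends, 26499 (71.8%) were in 1 library and 2035 (5.52%) in all 4. Allowing 5 kb at each end, 50.04% of the loops of Ino80KD replicate 1 were found in replicate 2 and 46.2% in Brg1KD replicate 1 of its batch. For Brg1KD replicate 1 the order was turned, with 46.7% found in its own replicate and 51.3% in Ino80KD replicate 1. The lists of 1 group were therefore not closer to each other than to the other group throughout.

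Loops listed for both Ino80KD replicates and for no Brg1KD replicate, the first set, numbered 1397 (3.79% of all distinct loops). The reverse, the second set, numbered 801 (2.17%). Split by batch in place of depletion, 949 loops (2.57%) were in both libraries of batch 1 and neither of batch 3. The opposite split held 846 (2.29%). The second set was thus smaller than either split by batch, and the first set larger. Of the first set 90 (6.44%) joined baits and 110 (7.87%) spanned 1 to 10 Mb. Of the second set 15 (1.87%) joined baits and 12 (1.5%) spanned 1 to 10 Mb. Over all distinct loops 4.33% joined baits and 7.32% spanned 1 to 10 Mb. For loops between baits the first set lay above this background and the second below it, while for loops of 1 to 10 Mb the first set lay near it and the second below. In histone genes there were 42 loops of the first kind and 0 of the second, of 337 distinct loops. In homeobox regulators there were 55 and 4 of 299, in other developmental regulators 29 and 5 of 235, and in polycomb genes 11 and 0 of 106.

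Ranked by the authors' score in both libraries, the leading loops of the first set were Irx5 to Irx3, then Mnx1, a factor of motor neurons and pancreas, to a region 1016 kb away (score 16.9 and 14.9), and Dmbx1, a homeobox factor of the midbrain, to Tal1 883 kb away (18.1 and 14.7). Tjap1, a gene of a tight junction protein, came next with a region of the same chromosome far outside this range (14.4 and 18.9). Foxa2 to a region 853 kb away followed (18.3 and 13.7), as did Btn2a2, a butyrophilin gene beside the histone clusters, over 1559 kb (18.2 and 13.5). Of these 6 the Irx3 and Foxa2 loops were in both Control lists, the Tal1 and Tjap1 loops in 1, and the others in neither. The leading loops of the second set ran to the same unbaited region of chromosome 6 from Cd207 (score 14.0 and 22.1) and Clec4f (16.7 and 11.3), neighbouring lectin genes of Langerhans and Kupffer cells. Both spanned over 10 Mb. The Cd207 loop was in both Control lists and the Clec4f loop in 1. None of the 10 leading loops of the second set joined 2 baits, where 1.87% of that whole set and 4.33% of all distinct loops did.

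Along the genome, 1107 windows of 1 Mb held 8 or more loops over the 4 libraries. By limma with batch as a block and Benjamini-Hochberg adjustment over all windows, 7 (0.632%) were higher in Ino80KD and 2 (0.181%) lower. For comparison, 26.7% of windows were higher in both batches and 27.9% lower. The test has 1 residual degree of freedom per window, and its spread is pooled over all windows. With no scaling, or in lists cut to equal length, 0 windows and 0 baits passed the limma test, while 70 and 62 windows, and 123 and 110 baits, had an unadjusted p under 0.05. Of the 9 calls, 1 was also made with Ino80KD replicate 1 left out and 0 with replicate 2 left out, against 8 and 7 with Brg1KD replicate 1 or 2 left out.

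The window with the smallest p was chr2:18000001-19000000, with Bmi1, Commd3, Skida1 and Spag6. It had 18 and 17 loops in Ino80KD, 1 and 1 in Brg1KD and 14 and 3 in Control, a log2 difference of 3.39 ± 0.56 (limma adjusted p = 1.505e-06). In this window 3 and 5 loops joined baits in Ino80KD and 0 and 0 in Brg1KD. It was the sole call kept without the batch block (limma adjusted p = 0.0296). Brg1KD was nearly without loops there, and both Control libraries lay between the depletion groups.

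The window chr13:23000001-24000000 holds histone genes and the butyrophilin genes Btn1a1 and Btn2a2. It had 166 and 172 loops in Ino80KD, 65 and 105 in Brg1KD and 159 and 121 in Control, a difference of 0.84 ± 0.15 on the log2 scale (limma adjusted p = 1.385e-05). The window chr13:21000001-22000000 had 79 and 93 against 45 and 40 (Control 71 and 68), a difference of 0.81 ± 0.21 (limma adjusted p = 0.0178). With loops of 1 Mb or longer left out the differences of these windows became 0.24 and 0.53, with limma adjusted p of 0.772 and 0.544. Both calls thus rested on loops of that length.

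The other higher windows had developmental regulators among their baits. The window chr12:56000001-57000000, with Pax9 and Nkx2-1, had 16 and 21 loops against 2 and 4 (Control 15 and 10), a log2 difference of 2.30 ± 0.48 (limma adjusted p = 0.000709). The window chr2:147000001-148000000, with Pax1 and Nkx2-2, had 11 and 9 against 1 and 1 (Control 8 and 6), a difference of 2.61 ± 0.64 (limma adjusted p = 0.0110). The window chr4:115000001-116000000, with Tal1, Dmbx1 and Kncn, had 40 and 33 against 11 and 12 (Control 31 and 7), a difference of 1.43 ± 0.34 (limma adjusted p = 0.00700). In each, both Ino80KD libraries exceeded all Control and Brg1KD libraries. The chromosome 4 window holds 24 baits, and its loops were not mainly those of developmental genes. Over the 4 libraries its leading baits were those of Tal1 (10 and 6 loops), 6430628N08Rik (10), Kncn (9), Dmbx1 (8) and Efcab14 (5). The window chr7:131000001-132000000, with Hmx2 and Hmx3, homeobox factors of the inner ear, had 9 and 9 loops in Ino80KD, none listed in Brg1KD and 5 and 6 in Control (limma adjusted p = 0.0370). No fold is given for this window, since Brg1KD was at 0 and the lists start at a minimum score.

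The lower windows held unrelated genes. The window chr5:143000001-144000000, with Ankrd61, Aimp2 and Pms2, had 4 and 1 loops in Ino80KD, 10 and 8 in Brg1KD and 2 and 1 in Control, a log2 difference of -2.05 ± 0.57 (limma adjusted p = 0.0421). Here Brg1KD was the group apart from Control. The window chr11:70000001-71000000, with the lectin receptor genes Asgr1, Mgl2 and Clec10a, had 63 and 54 against 80 and 86 (Control 76 and 70), a difference of -0.70 ± 0.19 (limma adjusted p = 0.0436). Here Ino80KD was below all other libraries.

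**Figure D4:**
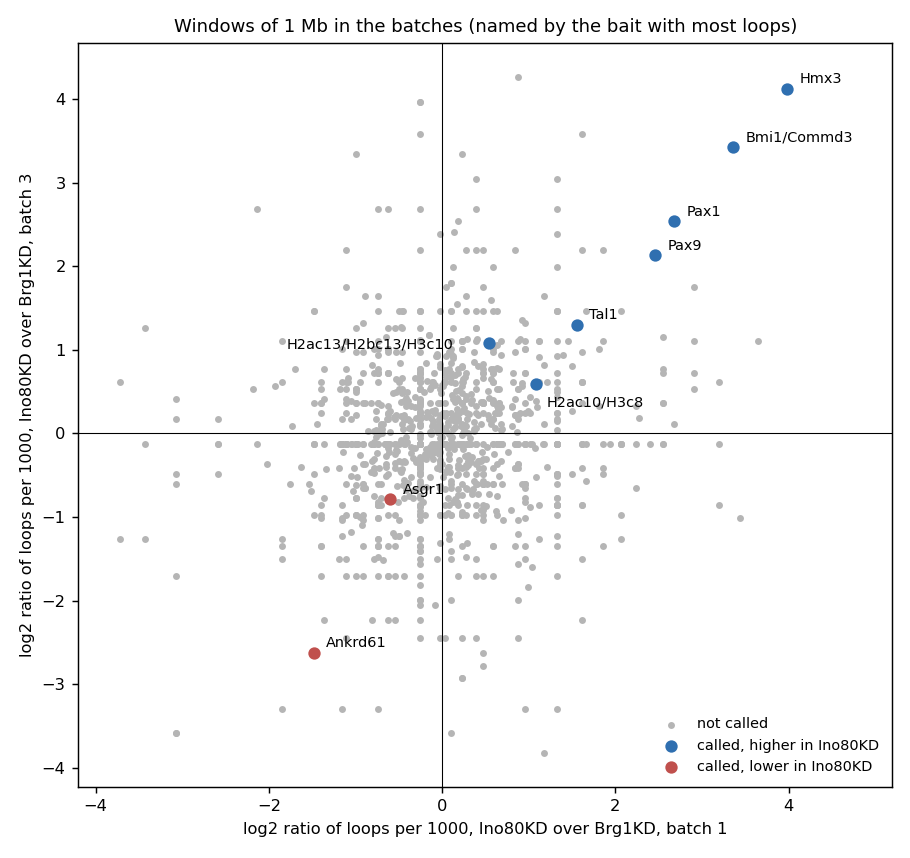
Log2 ratio of loops per 1000, Ino80KD over Brg1KD, in batch 1 (x axis) and batch 3 (y axis) for 1107 windows of 1 Mb. Coloured points passed the limma test and are named by the bait with most loops at either end. The windows themselves count loops by the bait end only, by which Pom121l2 led the window labelled H2ac13/H2bc13/H3c10. The 7 higher windows lie in the upper right, furthest for Bmi1 and Hmx3, and the 2 lower windows in the lower left.

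Of 1805 baits with 8 or more loops, 2 (0.111%) were higher in Ino80KD and 1 (0.0554%) lower by the same test. The bait of Syt9, a synaptotagmin of vesicle release, had 9 and 11 loops in Ino80KD, 0 and 2 in Brg1KD and 5 and 8 in Control, a log2 difference of 3.03 ± 0.61 (limma adjusted p = 0.00113). The bait shared by H2ac7, H2bc7 and H3c4, at chr13:23573457-23576209, had 12 and 20 against 3 and 6 (Control 9 and 5), a difference of 1.56 ± 0.39 (limma adjusted p = 0.0499). The bait of H2-M11, a nonclassical histocompatibility gene, had 1 and 0 loops in Ino80KD, 7 and 8 in Brg1KD and 4 and 2 in Control, a difference of -3.40 ± 0.77 (limma adjusted p = 0.00918). Without the batch block no bait passed, while 63 were higher and 28 lower at an unadjusted p under 0.05. The H2-M11 call remained without either Ino80KD replicate, and none of the 3 remained without either Brg1KD replicate.

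Ranked by the smaller of the 2 batch differences, 7 of the 10 leading higher baits were histone baits. The other 3 were Syt9, Zfp184, a zinc finger gene within the histone region (10 and 15 loops against 3 and 5, Control 13 and 13), and Zfp57, which protects imprints (15 and 18 against 8 and 9, Control 17 and 8). Of the 10 leading lower baits, 3 lay in the histocompatibility region of chromosome 17. Besides H2-M11 these were Btnl6, a butyrophilin-like gene (1 and 0 loops against 7 and 4, Control 5 and 0), and H2-Ob (9 and 4 against 11 and 10, Control 6 and 9). Of 27 tested baits of the histocompatibility and butyrophilin-like list, 8 were lower in both batches, 4 higher and 15 mixed. Over all baits 28% were lower and 24.5% higher, so the list as a whole was near the background. Zfp57, among the leading higher baits, also lies on chromosome 17, at 37000043. A bait inside Sptan1, a spectrin gene, had 2 and 5 against 8 and 9 (Control 6 and 8), and Asgr2, a hepatic lectin gene, had 2 and 2 against 6 and 6 (Control 5 and 4). The ranked baits are given as a description, since those other than the 3 named did not pass the test.

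**Figure D5:**
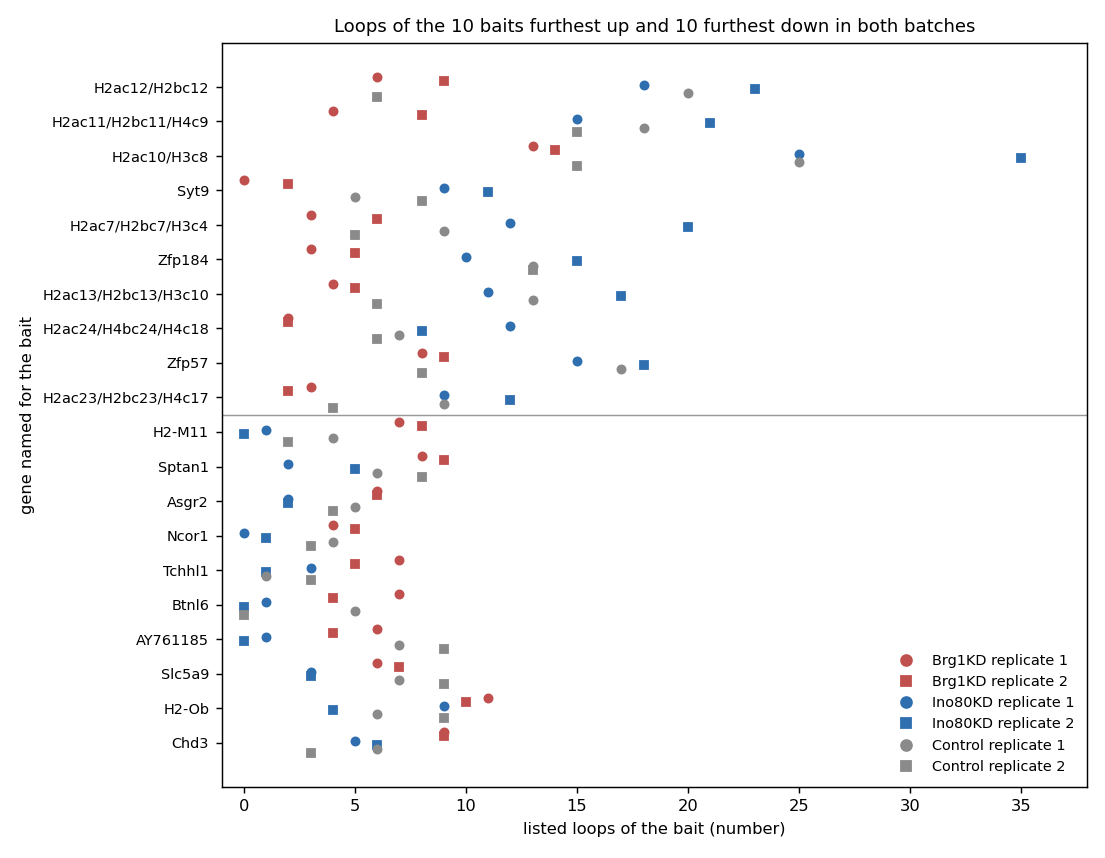
Listed loops of the 10 baits furthest up and the 10 furthest down in Ino80KD against Brg1KD in both batches, with a point per library and a line between the sets. The bait of H2ac10 and H3c8 reaches 25 and 35 loops in Ino80KD against 13 and 14 in Brg1KD.

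The authors' deposited tables compare each depletion with the same 2 Control libraries by loop, with no direction named in the header. Their log2 values had a median of -0.33 in Brg1KD over 195 loops of histone baits, with 41 above 0. In the authors' deposited table for Ino80KD the median was 0.22 over 316 loops, with 249 above 0. The 2 tables hold different sets of loops, so the 2 medians of a list are not over the same loops. For homeobox baits the authors' deposited tables gave medians of -0.18 over 220 loops and 0.16 over 302. Medians of like size were not limited to these lists. For olfactory receptor baits the authors' deposited tables gave 0.0057 over 2065 loops in Brg1KD and -0.17 over 2053 in Ino80KD. For vomeronasal receptor baits the authors' values were 0.023 over 318 and -0.16 over 288. The medians over all rows of the authors' deposited tables were -0.0084 and 0.0023, and 0 loops passed an adjusted p under 0.05 in either table.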

How the data were processed

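Promoter-capture Micro-C loops of 4 libraries, with 2 Control libraries as background, came from 6 lists in which the authors deposited a bait, an other end and a score of 5 or more per loop. The submitters' processing notes name mm10 and bedtools; a loop caller is named in no source used here. The authors' deposited comparison tables give log2 values, their error, a score, p-values and a mean normalised signal, the last not used, per the file headers, and group lists give positions only. The lists hold 16585 to 18611 rows in the 4 libraries.

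Baits (19083) were named from RefSeq GRCm38.p6: 12043 carried a gene end, 1238 lay within 2 kb of one, 4274 lay inside a gene and 1528 were unnamed. One bait was left out, because 2876 of its 6693 loops are missing from the deposited group lists and no other bait lacks any. Ratios are geometric means of within-batch ratios. Baits and 1 Mb windows with 8 or more loops over the 4 libraries were tested with limma 3.58.1 in R 4.3.3 on log2 of (loops + 0.5) per 1000 intrachromosomal loops, with batch as a block, mean-trended empirical Bayes and Benjamini-Hochberg adjustment at 0.05. Single values had exact permutation tests (SciPy 1.17.1), and shares had 95% Wilson intervals. In simulated data with 4-fold changes the test found 34% of 200 changed baits and 58.5% of 200 changed windows, with 1 and 3 unchanged ones called.

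Same-numbered libraries share a batch in the labels, which gives the pairing; their deviations from group means correlated at -0.06 over baits and 0.04 over windows. Named baits and windows were those called, and those leading by the smaller of the 2 batch differences in loops per 1000 (10 baits or 5 windows each way). Named loops led by the worse rank of their score in the 2 lists, and named list members were the up to 4 with most loops, plus 12 gene pairs, most of them chosen after their values were seen. The genes, lists and members were chosen with earlier results of these data known. Alternatives changed the score minimum, list length, scaling, naming rule, pseudocount, loop minimum, window size, the block and each replicate.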

Additional observations from a re-analysis of the deposited data

How the results depend on the processing

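The higher loop numbers of the histone, homeobox, other developmental and polycomb lists in Ino80KD kept their direction in both batches under each alternative run and without each replicate. Loops of score 7 or more gave an intrachromosomal ratio of 1.27, a between-bait share ratio of 1.86, 450 and 188 loops in both libraries of 1 group and neither of the other (Ino80KD and Brg1KD), and 5 lists lower. The between-bait ratio was 1.46 with the 4 lists left out, and 1.40 to 1.81 without each replicate. Lists higher numbered 14 to 19 without each replicate. Lists lower numbered 1 in lists of equal length, per 1000 loops of every kind and with no scaling, 7 with baits counted once, 8 with no replicate block and 6 to 11 without each replicate. Without a replicate or the block, each list had a single ratio of group means and fell on one side or the other. The main counts need the same direction in both batches, so these numbers cannot be set against them.

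Called baits numbered 0 with no replicate block, 7 with a pseudocount of 2, 6 at 4 or more loops and 0 to 2 without each replicate. Called windows numbered 1 with no replicate block, 4 without loops of 1 Mb or longer, 5 with a pseudocount of 2, 4 at 2 Mb and 0 to 16 without each replicate. In lists of equal length and with no scaling, 0 baits and 0 windows were called, though 110 and 62, and 123 and 70, had an unadjusted p under 0.05. Both settings keep whole numbers, which tie exactly, and baits with a spread near 0 rose from 9 to 131 and 125. The prior degrees of freedom fell from infinite in the main fits to 0.773 to 1.34. In the main fits each bait or window thus took the pooled spread in place of its own, and the calls depend on that. With no replicate block the prior was finite, 3.94 for baits and 7.42 for windows. No scaling moved the median log2 difference of all baits from -0.01 to 0.18. Among alternative values of single baits and windows 14 gained and 83 lost the call, and 0 of 354 changed direction. Ratios crossed 1 in 50 of 374 values of gene lists and 5 of 32 of the other distance classes. With 2 libraries a group, 1 residual degree of freedom and unknown depth, small differences were not detectable. Alternatives that use loops of 1 Mb or longer, transcript starts, loops between baits or the 4 lists were chosen after seeing the data.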

Other observations

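The gene lists not described above had the following loops. Ribosomal protein genes had 49 and 65 loops in Ino80KD, 39 and 40 in Brg1KD and 58 and 46 in Control, ratios of 1.05 and 1.49 per 1000. Genes of CTCF, cohesin and Mediator, which organise loops, had 25 and 35 against 17 and 17 (Control 37 and 31), ratios of 1.23 and 1.89; with baits named by transcript starts the batch 1 ratio was 0.84. Heat shock chaperone genes (42 and 36 against 23 and 32), serpin genes (30 and 31 against 24 and 20) and primed epiblast genes (15 and 9 against 12 and 4) were higher in both batches, but each had a ratio under 1 in a batch under at least 1 alternative. Zinc finger protein genes (433 and 372 against 311 and 353), keratin and keratin-associated genes (198 and 178 against 135 and 175), clustered protocadherin genes (107 and 83 against 67 and 95) and 2-cell-like genes (40 and 24 against 25 and 31) were higher in batch 1 and lower in batch 3 per 1000. Nuclear oxidative phosphorylation genes (83 and 85 against 88 and 74) and cytochrome P450 genes (66 and 84 against 64 and 69) had the opposite order. Among chromosomes, chromosome 13 had 585 and 627 loops in Ino80KD and 356 and 429 in Brg1KD, ratios of 1.37 and 1.34 per loop.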
